A study of Mus musculus with 8 samples.

Results

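The genes of the hypoxia response and of glycolysis are described here in RNA from the hind end of the trunk of mouse embryos at day 9.5 of development, when the tail bud is still adding tissue to the body axis. The 36 genes were chosen by symbol from the 55573 genes of the deposited table and fall into 3 groups: 19 genes of glucose uptake and glycolysis, 14 other targets of the hypoxia-inducible factors (HIF), and 3 stress genes. The choice was made with earlier results of these data known. Counts of these genes set beside the shares of all genes therefore give no independent support. Aldoa is listed on 2 rows, so the 36 genes have 37 rows. Of these, 36 rows had enough reads to be tested, and Adm did not.

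The embryos came from matings between C57BL/6 mice that each carried 1 knockout allele of Prtg. This gene encodes protogenin, a cell-surface protein of the immunoglobulin superfamily. There were 2 libraries of wild-type embryos (WT, Prtg+/+), 3 of heterozygous embryos (Het, Prtg+/-) and 3 of homozygous embryos (KO, Prtg-/-), and the labels name no treatment. Each library was made from poly(A) RNA of the trunk behind a cut between somites 12 and 13. The deleted part of Prtg and the litters are not given in the labels. P-values therefore measure the spread between these libraries. In whole tissue, fewer cells of a type and less RNA per cell cannot be told apart.

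When oxygen is short, the prolyl hydroxylases that mark HIF-1α and HIF-2α for destruction slow down. The stabilised subunits pair with ARNT and bind short hypoxia response elements near their targets. Known targets include glucose transporters, most enzymes of glycolysis, pyruvate dehydrogenase kinase, which keeps pyruvate out of the mitochondria, and the hydroxylases Egln1 and Egln3 themselves. In the growing tail end of vertebrate embryos glycolysis is known to be active, as a posterior gradient in the presomitic mesoderm.

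Library KO 1-3 departed most in these genes. It had the highest level of the 8 libraries in 35 of the 36 tested rows, with a median of 2.11 times the average of the 5 WT and Het libraries. By comparison, KO 1-3 was the highest library in 26.9% of all 16262 tested genes. KO 2-2 and KO 2-3 stood much closer to WT and Het, at a median of 1.13 times their mean. The KO libraries are therefore given apart throughout.

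KO 1-3 also stood apart in other ways. The labels do not explain the numbers in the library names. Their first number is used here to name a column set: set 1 holds WT 1-2, Het 1-1 and KO 1-3, and set 2 holds the other 5 libraries. Total counts lay between 16874860 and 17511964 reads, so depth was nearly equal. Levels are given as CPM, read counts scaled to the same library total with TMM normalization. Mitochondrial genes held 0.634% of the reads of KO 1-3 and 1.10% to 1.30% of those of the other 7 libraries. Replicate variance was 24.4 and 27.9 times that of counting in the pairs of KO 1-3 with another KO library, and 4.96 to 10.99 times in the other pairs of 1 genotype. Xist, made by the inactive X of female cells, reached 803 to 1101 CPM in 4 libraries (WT 1-2, Het 1-1, Het 2-4 and KO 1-3) and at most 3.57 CPM in the others, so KO 1-3 was the only KO library with Xist. Prtg itself was at 317 and 386 in WT, 250.1, 240.5 and 282 in Het, 268 in KO 1-3, and 254 and 237 in KO 2-2 and KO 2-3. KO 1-3 was thus not an outlier in Prtg, whose transcript remained in all KO libraries (-0.25 ± 0.08 log2, KO minus the WT and Het mean, edgeR adjusted p = 0.27), and the reads counted on it cannot check the genotype labels. The part of library composition in the results below was not tested. Sex was fitted only as an added term in the genotype comparisons. That term took sex from Xist above 100 CPM and was chosen after the data were seen.

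The promoters of the genes that set KO 1-3 apart are shown first, with the short cores that HIF and the metal sensor MTF1 are known to bind. They are RefSeq windows on GRCm38.p6 of 300 bases, from 250 before to 50 after the start, printed 5′ to 3′. Pfkp, Ddit4 and Egln1 gave the smallest p of the difference between the column sets among genes with a window, and Bnip3 has many cores. In these 4, capitals mark the hypoxia core ACGTG or GCGTG on either strand, so that CACGT and CACGC are the same cores read from the other strand and CACGTG counts on both strands.
Pfkp, chr13:6648722-6649021, minus strand: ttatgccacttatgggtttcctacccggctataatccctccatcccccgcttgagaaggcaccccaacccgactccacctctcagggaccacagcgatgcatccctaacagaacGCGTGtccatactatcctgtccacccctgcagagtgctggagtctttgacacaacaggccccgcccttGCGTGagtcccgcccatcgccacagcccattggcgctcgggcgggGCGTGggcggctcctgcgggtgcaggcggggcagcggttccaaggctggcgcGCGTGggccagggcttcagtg
Ddit4, chr10:59951721-59952020, minus strand: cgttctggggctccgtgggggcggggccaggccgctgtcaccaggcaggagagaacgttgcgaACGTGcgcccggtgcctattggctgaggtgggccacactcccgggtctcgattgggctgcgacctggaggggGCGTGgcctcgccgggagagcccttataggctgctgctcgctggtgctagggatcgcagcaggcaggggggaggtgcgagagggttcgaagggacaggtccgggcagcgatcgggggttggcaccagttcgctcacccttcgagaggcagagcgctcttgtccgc
Egln1, chr8:124949205-124949504, minus strand: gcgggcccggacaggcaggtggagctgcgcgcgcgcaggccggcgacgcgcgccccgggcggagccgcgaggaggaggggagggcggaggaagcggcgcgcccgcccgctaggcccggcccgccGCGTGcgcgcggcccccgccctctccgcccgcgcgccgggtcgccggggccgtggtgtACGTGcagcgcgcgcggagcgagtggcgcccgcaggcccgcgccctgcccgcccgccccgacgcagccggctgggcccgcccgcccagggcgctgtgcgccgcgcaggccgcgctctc
Bnip3, chr7:138909457-138909756, minus strand: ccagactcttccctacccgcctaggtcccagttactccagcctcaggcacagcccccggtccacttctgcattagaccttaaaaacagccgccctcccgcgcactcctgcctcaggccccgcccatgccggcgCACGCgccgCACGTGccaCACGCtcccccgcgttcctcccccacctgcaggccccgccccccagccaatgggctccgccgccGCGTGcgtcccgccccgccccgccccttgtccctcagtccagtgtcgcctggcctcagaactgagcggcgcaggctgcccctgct
Mt1 and Mt2 are shown because metallothionein genes are the classic targets of MTF1, and capitals there mark the metal response core TGCACNC or TGCGCNC on either strand.
Mt1, chr8:94178839-94179138, plus strand: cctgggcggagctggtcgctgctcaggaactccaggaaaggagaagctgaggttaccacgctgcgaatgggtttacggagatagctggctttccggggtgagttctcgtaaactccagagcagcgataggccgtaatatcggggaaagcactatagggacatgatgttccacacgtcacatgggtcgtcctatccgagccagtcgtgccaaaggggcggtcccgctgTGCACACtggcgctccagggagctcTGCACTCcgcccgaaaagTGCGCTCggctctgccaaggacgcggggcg
Mt2, chr8:94172368-94172667, plus strand: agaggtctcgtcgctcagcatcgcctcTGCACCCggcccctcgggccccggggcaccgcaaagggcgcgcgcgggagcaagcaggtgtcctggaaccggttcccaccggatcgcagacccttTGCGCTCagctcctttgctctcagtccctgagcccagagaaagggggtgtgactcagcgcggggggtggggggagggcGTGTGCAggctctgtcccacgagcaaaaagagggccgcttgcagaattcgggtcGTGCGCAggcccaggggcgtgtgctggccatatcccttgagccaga
The hypoxia core occurred 4 times in the Pfkp window, 2 times in each of those of Ddit4 and Egln1 and 5 times in that of Bnip3. The metal core occurred 3 times in the Mt1 window and 4 times in the Mt2 window. Each window also held cores of the other kind, not marked above, except that of Bnip3. The metal core occurred 3 times in the Egln1 window, 1 time in each of those of Pfkp and Ddit4 and 0 times in that of Bnip3. The hypoxia core occurred 2 times in each of the Mt1 and Mt2 windows, so the 2 kinds of core did not separate these genes. Of the 36 genes, 33 had at least 1 window, 48 windows in all, and 30 genes had a hypoxia core in at least 1 of them. The 3 with none were Eno2, Gpi1 and Tpi1, at 3.42, 1.88 and 1.77 times the WT and Het mean in KO 1-3. Some windows of 1 gene overlap, as in Eno1 and Aldoa, and each was counted. Slc2a3, Ndrg1 and Bhlhe40 had no window in the table. The hypoxia core was in 77.1% of the 48 windows against 43.8% of all 32851 windows, and ACGTG alone in 52.1% against 19.6%. The metal core was in 54.2% against 25.7%. These are matches of letters, many of the genes were listed because they are HIF targets, and base composition was not matched.

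In WT, the mean FPKM, computed here from the counts (reads per kilobase of exon, scaled to library total), ran from 0.38 for Eno2, the neuronal enolase, to 936 for Pkm, the pyruvate kinase. The next highest were Ldha, which turns pyruvate into lactate, at 825, Aldoa at 420 on its long row, Tpi1 at 359 and Eno1 at 257. Glucose transporters were at 176 (Slc2a1) and 98.6 (Slc2a3). The HIF targets outside glycolysis ran from 0.41 for Car9, a carbonic anhydrase, to 27.6 for Bnip3, and the stress genes lay between 6.14 for Mt1 and 23.7 for Ddit4. The median FPKM was 88.6 over the 20 glycolysis rows and 7.23 over the 13 tested HIF targets outside glycolysis, and the ranges overlapped.

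Values below are CPM and are given in the order WT 1-2, WT 2-1, Het 1-1, Het 2-4, Het 2-5, KO 1-3, KO 2-2, KO 2-3.

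Facilitative transporters that carry glucose into cells are Slc2a1 (GLUT1, chr4:119108711-119137983, plus strand) and Slc2a3 (GLUT3, chr6:122727809-122801640, minus strand). Slc2a1 was at 618 and 614 in WT, 611, 579 and 614 in Het, 1259 in KO 1-3, and 743 and 738 in KO 2-2 and KO 2-3. The WT and Het libraries lay within a narrow band, KO 2-2 and KO 2-3 above it, and KO 1-3 at 2.07 times the mean of WT and Het. Slc2a3 was at 660.4 and 769 in WT, 609, 690.3 and 764 in Het, 1692 in KO 1-3, and 802 and 829.9 in KO 2-2 and KO 2-3, with KO 1-3 at 2.42 times that mean and the other KO libraries just above the highest WT library.

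Phosphofructokinase commits sugar to glycolysis. Pfkl, the liver-type subunit (chr10:77986947-78010083), was at 631 and 752 in WT, 611, 679 and 712 in Het, 1268 in KO 1-3, and 794 and 834 in KO 2-2 and KO 2-3. All 3 KO libraries lay above all WT and Het libraries. Pfkp, the platelet-type subunit (chr13:6579768-6648777), was at 17.1 and 19.3 in WT, 15.5, 18.9 and 17.4 in Het, 219 in KO 1-3, and 21.1 and 19.9 in KO 2-2 and KO 2-3. This subunit was low in 7 libraries and 10.4 times the next highest in KO 1-3, so the 2 subunits differed in how far KO 1-3 departed. Pfkfb3 and Pfkfb4 make the activator of phosphofructokinase. Pfkfb3 was at 65.7 to 72.6 in the 7 other libraries and 167 in KO 1-3. Pfkfb4 was at 14.1 and 10.6 in WT, 10.99, 13.3 and 8.74 in Het, 14.7 in KO 1-3, and 16.9 and 13.7 in KO 2-2 and KO 2-3. It was the single tested row in which KO 1-3 was not the highest library, and the groups overlapped.

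The aldolases and the later enzymes complete the chain to lactate. Aldoc, the brain-type aldolase (chr11:78322968-78327781), was at 7.77 and 12.8 in WT, 7.90, 8.14 and 9.55 in Het, 64.1 in KO 1-3, and 17.5 and 13.5 in KO 2-2 and KO 2-3, and all 3 KO libraries exceeded all WT and Het libraries. Its level in KO 1-3 was 6.94 times the mean of WT and Het, and that in KO 2-2 and KO 2-3 was 1.68 times, the highest ratio of any of these genes in that pair of libraries. Ldha (chr7:46841475-46855627) was at 2453 and 3013 in WT, 2515, 2871 and 2978 in Het, 4417 in KO 1-3, and 3149.6 and 3318 in KO 2-2 and KO 2-3, again without overlap between KO and the others. For the other enzymes the ratio of KO 1-3 to the mean of WT and Het was 1.83 for Hk1 and 1.94 for Hk2, the hexokinases, 1.88 for Gpi1, the isomerase, 2.02 for the long row of Aldoa and 2.14 for its short row, 1.77 for the triose isomerase Tpi1, 2.28 for the phosphoglycerate kinase Pgk1, 1.53 for the mutase Pgam1, 3.42 for Eno2 and 1.51 for Pkm. Over the 20 glycolysis rows the median ratio was 1.91 in KO 1-3 and 1.16 in KO 2-2 and KO 2-3. Against the WT and Het libraries of their own column set these medians were 1.98 and 1.11.

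**Figure D1:**
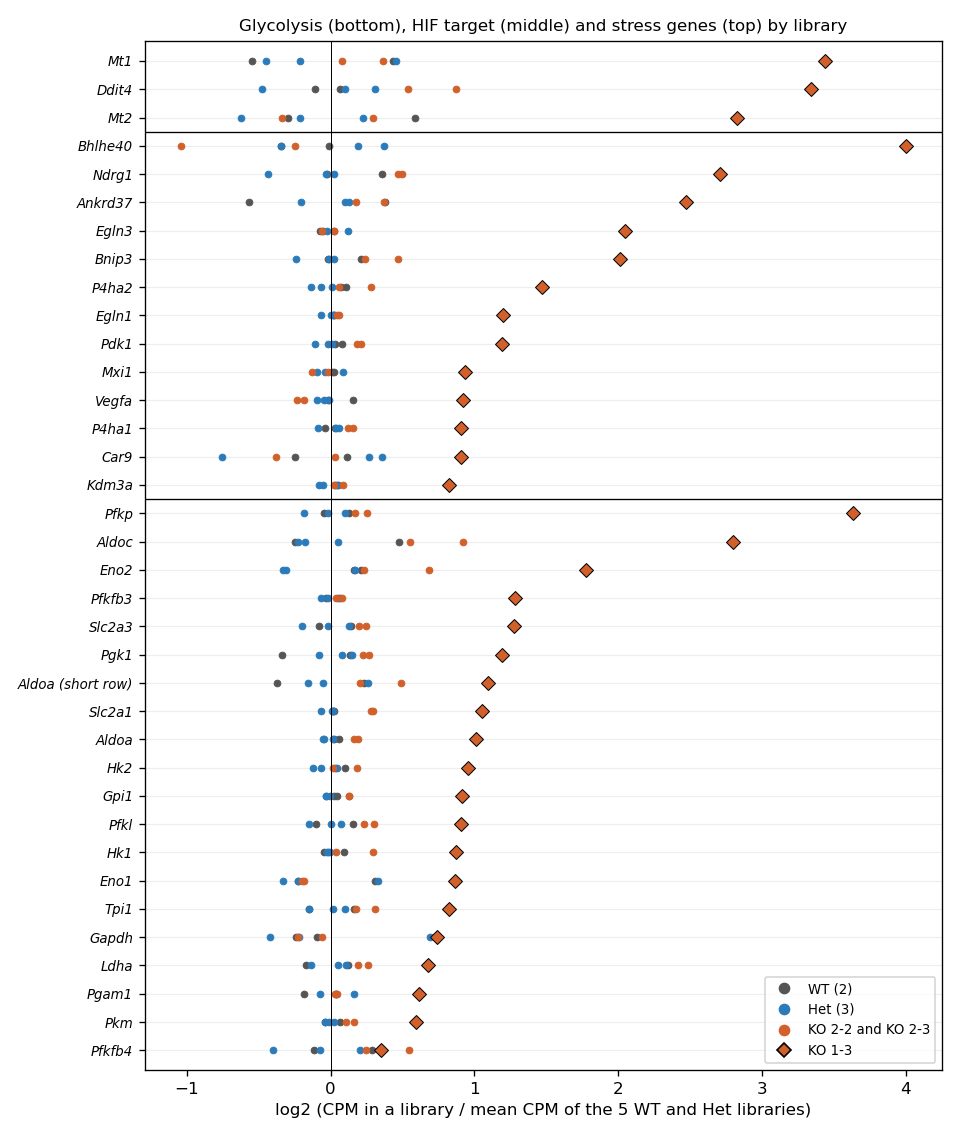
Each row is a gene and each point a library, placed by the log2 ratio of its CPM to the mean CPM of the 5 WT and Het libraries; diamonds are KO 1-3, orange circles KO 2-2 and KO 2-3, blue circles Het and grey circles WT. The diamond is the rightmost point in 35 of 36 rows, and the orange circles lie right of all WT and Het points in 18.

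The HIF targets outside glycolysis departed further in KO 1-3, with a median ratio to the mean of WT and Het of 2.30 over 13 tested rows, but less in KO 2-2 and KO 2-3, with a median of 1.04. Pdk1, the kinase that shuts off pyruvate dehydrogenase (chr2:71873224-71903858), was at 127 and 131 in WT, 115, 125 and 123 in Het, 284 in KO 1-3, and 143 and 141 in KO 2-2 and KO 2-3. Bnip3, a mitochondrial protein of mitophagy and cell death (chr7:138890836-138909519), was at 57.6 and 67.3 in WT, 49.3, 59.3 and 57.9 in Het, 235 in KO 1-3, and 80.8 and 68.8 in KO 2-2 and KO 2-3. Both were above WT and Het in every KO library. Ndrg1, a hypoxia- and stress-induced gene (chr15:66929318-66969640), was at 10.1 and 13.2 in WT, 7.61, 10.4 and 10.1 in Het, 66.98 in KO 1-3, and 14.5 and 14.2 in KO 2-2 and KO 2-3. It had the highest ratio of this group in KO 2-2 and KO 2-3, at 1.40. Ankrd37, an ankyrin-repeat protein (chr8:45996902-46005707), was at 3.56 and 6.84 in WT, 5.64, 4.57 and 5.75 in Het, 29.3 in KO 1-3, and 5.97 and 6.83 in KO 2-2 and KO 2-3, and there KO 2-2 and KO 2-3 overlapped with WT.

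The oxygen sensors of the pathway are themselves HIF targets. Egln1 (PHD2, the main HIF prolyl hydroxylase, chr8:124908587-124949324) was at 83.3 and 83.7 in WT, 78.7, 83.7 and 82.4 in Het, 189 in KO 1-3, and 85.8 and 84.8 in KO 2-2 and KO 2-3. Its 7 other libraries lay between 78.7 and 85.8, with KO 2-2 and KO 2-3 as the upper ones, and KO 1-3 was 2.21 times the next highest. Egln3 (PHD3) was at 16.99 and 15.8 in WT, 16.4, 18.2 and 16.05 in Het, 68.98 in KO 1-3, and 15.98 and 16.9 in KO 2-2 and KO 2-3, with KO 2-2 and KO 2-3 inside the range of WT and Het. Vegfa, the angiogenic growth factor, was at 92.5 and 104 in WT, 90.97, 87.95 and 93.2 in Het, 178 in KO 1-3, and 79.9 and 82.6 in KO 2-2 and KO 2-3: KO 1-3 was the highest library and KO 2-2 and KO 2-3 the 2 lowest. Bhlhe40, a repressor also called Dec1, was at 2.51 and 1.99 in WT, 3.27, 1.99 and 2.88 in Het, 40.4 in KO 1-3, and 1.23 and 2.12 in KO 2-2 and KO 2-3, with the highest ratio in KO 1-3 (15.99) and the lowest in the other KO libraries (0.663) of all tested rows. Egln3, Vegfa and Bhlhe40 were picked out after their values were seen.

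Adm, which encodes the vasodilator adrenomedullin, was below the filter on low counts. Its reads were 4 and 3 in WT, 7, 6 and 9 in Het, 140 in KO 1-3, and 2 and 4 in KO 2-2 and KO 2-3. It too was high in 1 library and near the detection limit in the rest. The other members of the group, P4ha1 and P4ha2 of collagen prolyl hydroxylation, the histone demethylase Kdm3a, the MYC antagonist Mxi1 and Car9, were at 1.88, 2.77, 1.77, 1.91 and 1.88 times the mean of WT and Het in KO 1-3. Car9 was at most 1.83 CPM.

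The 3 stress genes had the highest group ratio in KO 1-3, between 7.09 and 10.8. Ddit4 (REDD1, an inhibitor of mTORC1 and also a HIF target, chr10:59949669-59951834) was at 39.1 and 44.2 in WT, 30.4, 45.2 and 52.2 in Het, 427 in KO 1-3, and 77.2 and 61.4 in KO 2-2 and KO 2-3. All KO libraries exceeded all WT and Het libraries, KO 1-3 by far. The metallothionein Mt1 (chr8:94179082-94180327) was at 10.2 and 5.15 in WT, 10.3, 6.50 and 5.52 in Het, 81.5 in KO 1-3, and 7.96 and 9.70 in KO 2-2 and KO 2-3. Mt2 (chr8:94172664-94173568) was at 12.7 and 6.84 in WT, 9.86, 7.27 and 5.46 in Het, 59.7 in KO 1-3, and 6.67 and 10.3 in KO 2-2 and KO 2-3. In both metallothioneins KO 2-2 and KO 2-3 lay within the range of WT and Het, and WT 1-2 and Het 1-1, of the same column set as KO 1-3, were the upper 2 of those 5 libraries. Against the mean of those 2, KO 1-3 was at 7.95 times for Mt1 and 5.30 times for Mt2. Against WT 2-1, Het 2-4 and Het 2-5, of their own column set, KO 2-2 and KO 2-3 were at 1.54 times for Mt1, where both lay above all 3, and at 1.30 times for Mt2. The edgeR KO effect within column set 2 was 0.63 ± 0.14 log2 for Mt1 (adjusted p = 0.0627) and 0.38 ± 0.19 for Mt2 (adjusted p = 0.547).

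**Figure D2:**
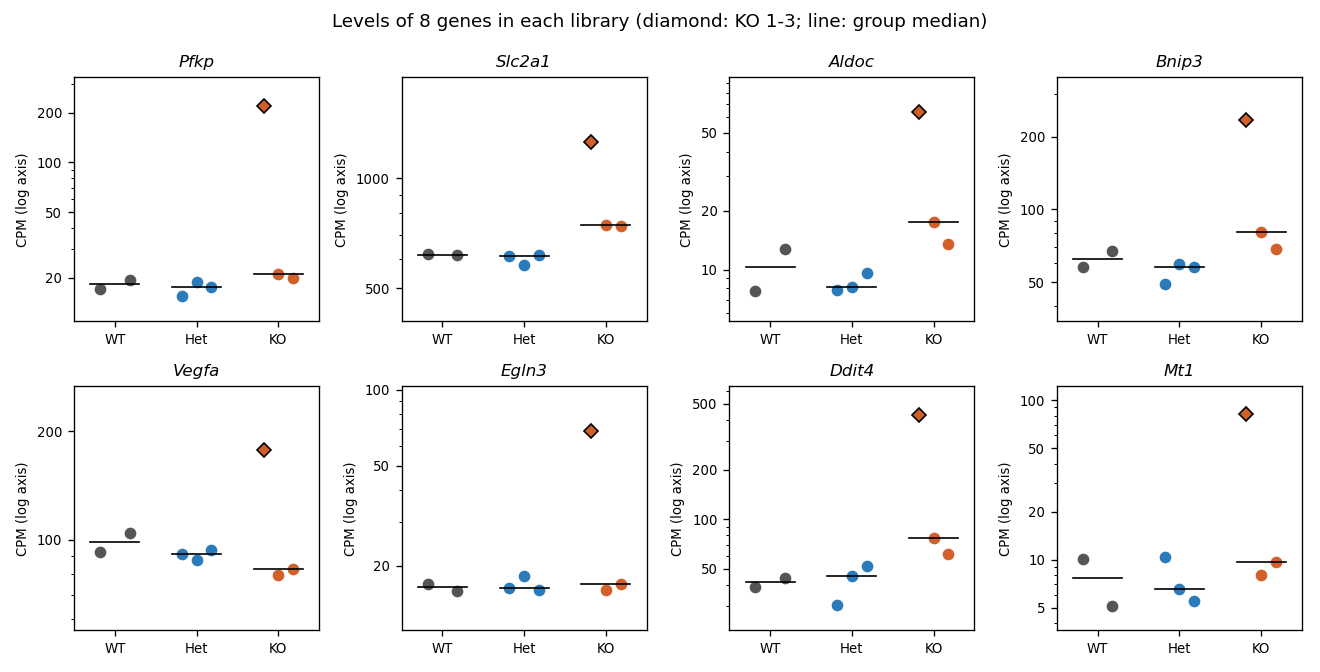
CPM on log axes of 8 genes in WT, Het and KO, 1 point per library, with the group median as a line and KO 1-3 as a diamond. Slc2a1, Aldoc, Bnip3, Pfkp and Ddit4 have all KO points above WT and Het; Egln3 and Mt1 have KO 2-2 and KO 2-3 within their range, and Vegfa has them below.

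Whether the genotype changed these genes was asked in a single edgeR fit of all tested genes and 8 libraries with 1 mean per genotype, two-sided, with Benjamini-Hochberg adjustment over the whole table. None of the 36 rows passed an adjusted p of 0.05 in KO minus WT (lowest adjusted p = 0.562, Ddit4), KO minus Het (0.234, Aldoc), KO minus the WT and Het mean (0.159, Ddit4) or Het minus WT (1.00). Of all tested genes 0.0369%, 0.191%, 0.332% and 0% were called in these contrasts. DESeq2 called none of them either. Without KO 2-3, edgeR called Aldoc (2.12 log2, adjusted p = 0.0486) and Ddit4 (2.58 log2, adjusted p = 0.0477) in KO minus the WT and Het mean. Over the fits that each left out 1 library, 9 to 62 genes of the whole table were called in that contrast. At an unadjusted edgeR p below 0.05, 20, 30, 30 and 0 of the 36 were higher and none lower. The shares of all genes higher at that p were 3.82%, 6.05%, 6.81% and 0.91%, and of those lower 3.38%, 4.8%, 5.21% and 0.885%. The 3 contrasts with KO share its libraries, so they are not independent.

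All 36 log2 fold changes were above 0 in each of the 3 KO contrasts. Their median in KO minus the WT and Het mean was 0.56, against 0.01 over all tested genes. In that contrast the 3 stress genes had the largest median, 2.13, then the HIF targets at 0.60 and the glycolysis rows at 0.48. Slc2a1 was at 0.59 ± 0.15 log2 (SE) with an edgeR adjusted p of 0.186, Aldoc at 1.76 ± 0.42 (0.159) and Ddit4 at 2.16 ± 0.52 (0.159). Pfkp, with a mean change of 2.29 ± 0.65, had an edgeR adjusted p of 0.232. In each of these genes KO 1-3 lay far above the other KO libraries.

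The genotype calls changed when the filter on low counts was dropped, but not with a stricter filter, where 0 members were called. With all 28823 rows with a read kept in the edgeR fit, 19 of 37 rows were called higher in KO minus WT, 29 in KO minus Het and 29 in KO minus the WT and Het mean, with 0 in Het minus WT, at almost the same fold changes and smaller SE. In that fit 0.347%, 0.888% and 1.07% of all genes were called higher in the 3 contrasts. For Slc2a1 the estimate in KO minus the WT and Het mean was 0.58 in that fit, with an edgeR adjusted p of 9.95e-06. In that fit 514 genes were called over the whole table, against 54 with the filter, and the cause was not tested.

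The departure of KO 1-3 was tested as the KO effect in column set 1 minus that in column set 2. Each effect is KO against the pooled WT and Het libraries of the set. Set 1 holds 1 KO library, so the test rests on the spread pooled over the other libraries and cannot tell the column set from that library. The separation of KO 1-3 also came from earlier results on these data, so the test gives no independent support. Of the genes described here, 31 of the 36 rows were called higher and 0 lower by edgeR, and 3.91% of all tested genes were called higher and 3.72% lower. By group these were 16 of 20 glycolysis rows, 12 of 13 HIF targets and 3 of 3 stress genes. The 5 rows not called were Pfkfb4, the short row of Aldoa, Gapdh, Eno2 and Car9. The median log2 difference was 0.99, against 0.00 for all tested genes.

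Pfkp gave the smallest p, with a log2 difference of 3.61 ± 0.12 (SE) between the effects and an edgeR adjusted p of 4.44e-10. Ddit4 followed at 3.06 ± 0.16 (6.05e-08), Egln1 at 1.19 ± 0.07 (3.40e-07) and Slc2a3 at 1.28 ± 0.09 (7.10e-07). In 27 of the 36 rows KO 1-3 was at least 1.5-fold above the highest other library, and in 15 at least 2-fold, against 3.21% and 0.842% of all tested genes. Among all tested genes ranked by that ratio, these genes held 4 of the top 10 and 9 of the top 30 places. The genes were listed with earlier results of these data known, so these counts give no independent support either.

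KO 2-2 and KO 2-3 showed a smaller version of part of the pattern. Against WT and Het of column set 2 their median ratio was 1.11, with 30 of 36 rows above 1 and 6 below. Both libraries were above all 5 WT and Het libraries in 18 of 36 rows, against 6.7% of all tested genes. In 1 row, Vegfa, both were below, against 7.22%. The 18 rows were 12 of 20 in glycolysis, 5 of 13 HIF targets (Bnip3, Egln1, Ndrg1, P4ha1 and Pdk1) and Ddit4. The glycolysis rows were Slc2a1, Slc2a3, Gpi1, Pfkl, Pfkp, the long row of Aldoa, Aldoc, Tpi1, Pgk1, Eno2, Pkm and Ldha. KO 1-3 was above WT and Het in those 18 as well, as it was in 4.21% of all tested genes together with both other KO libraries. Some margins of KO 2-2 and KO 2-3 were narrow. Eno2 had 43 and 32 reads there against 21 to 31 in WT and Het, and Egln1 85.8 and 84.8 CPM against at most 83.7. Tpi1 was at 1102 CPM in KO 2-2 against 1096 in WT 2-1. In KO 2-3, Bnip3 was at 68.8 and Pfkp at 19.9 CPM, against 67.3 and 19.3 in WT 2-1.

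With KO 1-3 left out of the edgeR fit, Slc2a1 passed the test, at 0.28 ± 0.04 log2 in KO minus the WT and Het mean (adjusted p = 0.0186), where 0.105% of all genes were called higher. It was also called in KO minus Het, where 0.0993% of all genes were called higher. Slc2a1 thus rose in the remaining KO libraries by less than with KO 1-3 included. No other row was called, although 16 were higher and 1 lower at an unadjusted edgeR p below 0.05, against 4.21% and 4.43% of all genes. The median log2 change was 0.17 instead of 0.56, with 28 rows above 0 and 8 below. Vegfa was the lower one, at -0.22 ± 0.06 log2 (edgeR adjusted p = 0.184). Within column set 2 alone, 2 rows were called by edgeR: Slc2a1 at 0.30 ± 0.04 log2 (adjusted p = 0.00237) and Ddit4 at 0.55 ± 0.10 (adjusted p = 0.018), where 0.234% of all genes were called higher. Bhlhe40 and Egln3, far apart from the rest in KO 1-3, were at -0.56 ± 0.30 and -0.02 ± 0.10 log2 without it. Markers of primitive erythroid cells were also higher in KO within column set 2: all 11 had an unadjusted edgeR p below 0.05, as did 798 of the 16262 tested genes in that direction, with a median of 0.66 log2, and none passed the adjusted test. Without KO 1-3 all 11 were above 0 in KO minus the WT and Het mean, with a median of 0.34. Of the neural tube markers, Pax6 (0.59 ± 0.12 log2) and Irx3 (0.33 ± 0.05 log2) were called higher within column set 2. Of 10 endothelial markers 8 were below 0 there and 2 above, with a median of -0.13 log2 and 0 called. KO 2-2 and KO 2-3 both lay below all WT and Het libraries in 3 of the 10, Cdh5, Erg and Pecam1, against 7.22% of all tested genes. They both lay above in 0 of the 10. The part of these cell types in the values of Slc2a1 and Ddit4 was not tested.

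**Figure D3:**
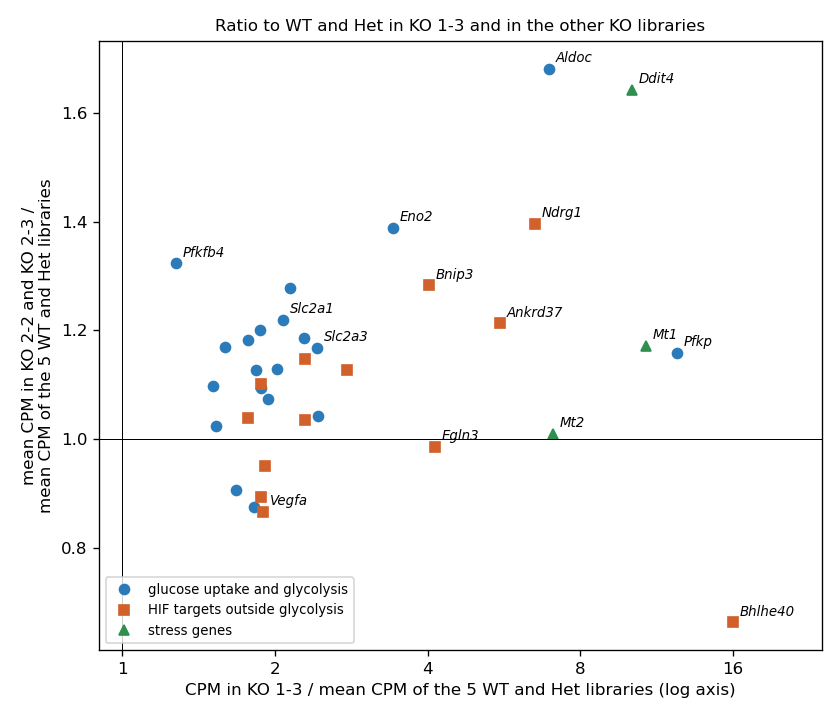
Each point is 1 tested row, placed by its CPM ratio to the average of the 5 WT and Het libraries in KO 1-3 (horizontal, log axis) and in the mean of KO 2-2 and KO 2-3 (vertical); colours and shapes give the group. Aldoc and Ddit4 are high on both, Pfkp is high in KO 1-3 with a ratio of 1.16 in the others, and Bhlhe40 is at 15.99 and 0.663.

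In Het minus WT no row was called by edgeR or DESeq2, and none reached an unadjusted edgeR p of 0.05. Of the 36 log2 fold changes 11 were above 0 and 25 below, with a median of -0.04. The smallest p-values were those of Pfkfb4, at -0.17 ± 0.19 log2, and Gapdh, at 0.27 ± 0.33 log2 (edgeR adjusted p of 1.00 for both). Gapdh, the glyceraldehyde phosphate dehydrogenase (chr6:125161715-125166467), was at 45.3 and 40.9 in WT, 78.1, 36.1 and 41.6 in Het, 80.9 in KO 1-3, and 46.4 and 41.3 in KO 2-2 and KO 2-3. Its high libraries were Het 1-1 and KO 1-3. A miss at this threshold does not show that WT and Het were alike.

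Genes of the same pathways outside the 36 were counted from lists of known genes. Counts called in the difference between column sets, here and for the cell type markers below, are to be set beside the shares given above. Those are the shares of all tested genes called higher and lower in that test. None of the 12 genes of oxygen sensing and HIF subunits was called in KO minus the WT and Het mean, where Cited2, which competes with HIF for a coactivator, was at 0.37 ± 0.07 log2 (edgeR adjusted p = 0.0789) and Hif3a at 0.44 ± 0.15 (0.307). In the difference between column sets 0 of the 12 were called higher and 2 lower, Hif1a at -0.34 ± 0.08 and Arnt2 at -0.70 ± 0.10. KO 1-3 was the highest library in 5 of the 12, among them Arnt, Epas1 and Hif3a, and the lowest in 5, among them Hif1a and Arnt2. The shares of all tested genes were 26.9% and 25.5%. KO 2-2 and KO 2-3 both lay below all WT and Het libraries in 1 of the 12, Hif1a, against 7.22% of all tested genes. Both lay above them in 1, Cited2, against 6.7%. Of 29 further HIF targets 24 were above 0 in KO minus the WT and Het mean, with a median of 0.29 and 0 called, and 16 were called higher in the difference between column sets, among them the stanniocalcins Stc1 (2.36 ± 0.29 log2) and Stc2 (1.69 ± 0.13 log2). Car12, a carbonic anhydrase, was at 0.98 ± 0.20 log2 and Stc1 at 1.79 ± 0.45 in KO minus the WT and Het mean, with edgeR adjusted p-values of 0.0747 and 0.175.

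Enzymes next to the pathway were counted in the same way. Of 16 further glycolytic isozymes and lactate carriers tested, 2 were called higher in the difference between column sets, Pdk3 (0.46 ± 0.10 log2) and the lactate carrier Slc16a1 (0.45 ± 0.09 log2). None was called in KO minus the WT and Het mean, where Hkdc1 was at 0.58 ± 0.20 and Pdk3 at 0.27 ± 0.10. KO 1-3 was the highest library in 10 of the 16, against 26.9% of all tested genes, and the lowest in 1. Of 22 genes of pyruvate dehydrogenase and the citric acid cycle none was called higher and 2 were called lower in the difference between column sets, Cs, the citrate synthase (-0.35 ± 0.08), and Ogdh (-0.56 ± 0.08). KO 1-3 was the lowest library in 11 of the 22, against 25.5% of all tested genes, and the highest in 4. Idh3a was at -0.26 ± 0.07 and Pdha1 at 0.14 ± 0.06 log2 in KO minus the WT and Het mean, where none of the 22 was called. Of 15 tested rows of the metal and integrated stress responses, Chac1 and Vldlr were called higher in the difference between column sets, at 3.03 ± 0.75 and 2.14 ± 0.16 log2. In KO minus the WT and Het mean none was called, with Vldlr at 1.14 ± 0.38 and the heat-shock gene Hspa1b at -0.60 ± 0.20 log2.

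Cell type markers in the same libraries were as follows. The 10 markers of paraxial mesoderm summed to 414 CPM in KO 1-3 and 482 to 561 in the others, and in the difference between column sets Meox1, Tcf15, Msgn1 and Pax1 were called lower and Hes7 higher. KO 1-3 was the lowest library in 6 of the 10 paraxial mesoderm markers and the highest in 2. The shares of all tested genes were 25.5% and 26.9%. The median difference of these markers in KO 1-3 from the WT and Het mean was -0.47 log2. The 11 markers of primitive erythroid cells summed to 6026 and 2974 CPM in WT, 4746, 4439 and 2912 in Het, 4510 in KO 1-3, and 6641 and 4162 in KO 2-2 and KO 2-3. KO 2-2 was the highest library and KO 1-3 lay within the range of the others. In the difference between column sets all 11 were below 0, and 2 α-globin genes, Hba-a1 and Hba-a2, were called lower. The 10 endothelial markers summed to 538 CPM in KO 1-3 and 438 to 529 in the others, with Kdr called higher and Emcn lower. The 10 neural tube markers summed to 229 CPM in KO 1-3 and 195 to 236 in the others, with Sox1 called lower. In KO minus the WT and Het mean, Irx3 of that list was called higher (0.35 ± 0.05 log2, edgeR adjusted p = 0.0174). The 10 markers of yolk sac endoderm summed to 41.5 CPM in KO 1-3 and 17.9 to 35.0 in the others, with Rbp4 called higher. All markers of the trunk's neural tube and mesoderm had reads in all 8 libraries, except Dbx1 of the neural tube, at 0 in WT 2-1. Apoa4 of the yolk sac list was at 0 in Het 2-4, KO 1-3 and KO 2-2. The part of cell composition in the levels of the hypoxia and glycolysis genes was not tested.

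Eno1, the main enolase, and Gapdh are uncertain because near-identical copies exist in the genome. Eno1b, a retrotransposed copy of Eno1, took 6.21% to 6.72% of the summed reads of both rows in the 3 libraries of column set 1 and 27.5% to 28.6% in the 5 of set 2, whatever the genotype. Eno1 alone was at 1637 and 1130.4 in WT, 1659, 1049 and 1126 in Het, 2399 in KO 1-3, and 1162 and 1152 in KO 2-2 and KO 2-3, so its WT and Het levels split by column set. The summed reads of both rows were 30061 and 26673 in WT, 29776, 25069 and 27146 in Het, 43558 in KO 1-3, and 27754 and 28088 in KO 2-2 and KO 2-3. On that sum KO 1-3 remained the highest library, and KO 2-2 and KO 2-3 lay within the range of WT and Het of both column sets. Within their own column set, KO 2-2 and KO 2-3 both lay above WT 2-1, Het 2-4 and Het 2-5 on that sum. The same held when the sum was scaled to library total, and for Eno1 alone. For Eno1 alone their mean was 1.05 times that of WT 2-1, Het 2-4 and Het 2-5. Gapdh was at 10.4 FPKM in WT, far below the enzymes on either side of it in the chain, and the table lists 4 rows described as its pseudogenes. The sources used here do not say how reads that match several copies were counted. Copies are also listed for Ldha (3), Pgam1 (3), Pgk1 (2) and Aldoa (2).

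**Figure D4:**
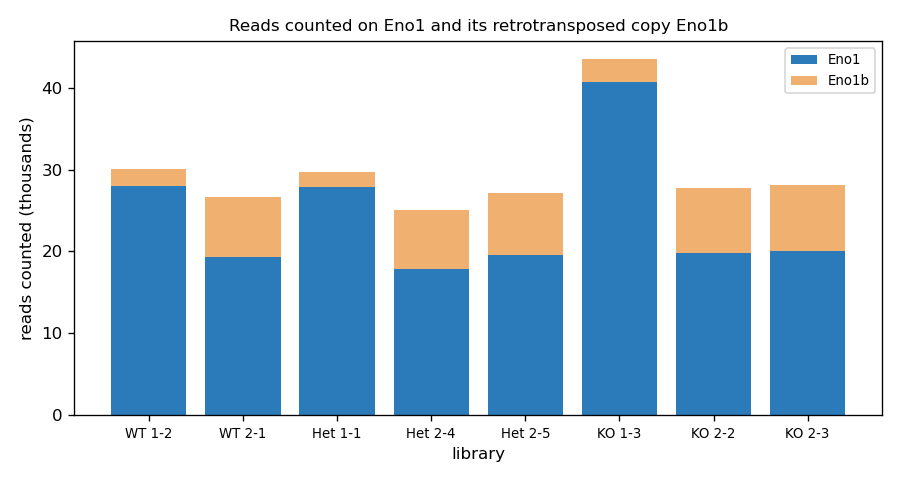
Bars give the reads counted on Eno1 (blue) and on its copy Eno1b (orange, stacked) in each library. The orange part is 6.21% to 6.72% of the bar in WT 1-2, Het 1-1 and KO 1-3 and 27.5% to 28.6% in the other 5 libraries.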

How the data were processed

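Poly(A) RNA of E9.5 posterior trunks was sequenced in 2 WT, 3 Het and 3 KO libraries. Per the labels' protocols, RNA was fragmented, primed at random, made into libraries with a kit that does not mark strand, and amplified by PCR, so copies of 1 molecule may be counted more than once. Tools named in the submitters' processing notes, without roles, are HTSeq 0.6.1, HISAT2 2.0.1 and cutadapt 1.9.1, and the builds are GRCm38 and mm10. Annotation release and strand setting: not given in the sources used here. Without strand, reads of overlapping genes cannot be separated.

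The authors deposited 1 table with a raw read count per gene and library. Its 8 FPKM columns were not used; FPKM was computed from counts, exonic lengths and library totals, for levels between genes only. Coordinates are those of the table. The labels hold no number found in the column names, and columns were placed by genotype alone. Replicates of 1 genotype differed by more than counting error and none were merged.

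Counts were tested with edgeR 4.0.16 (R 4.3.3, limma 3.58.1): TMM scaling, the default filter on low counts (16262 genes kept), the quasi-likelihood test and Benjamini-Hochberg adjustment at 0.05 over all tested genes. SE were computed from log2 fold changes and F statistics. The scripts were tested on simulated counts. Alternatives were DESeq2 1.42.0 with and without its cutoff on outlying counts, DESeq2 size factors, other filters, a term for column set or sex, only the compared genotypes, and leaving out each library. The sex term was taken from Xist above 100 CPM and chosen after the data were seen.

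The members and lists were chosen with earlier results of these data known. Values in all libraries were given for called members, the 4 of each group with the smallest p in KO minus the WT and Het mean (all 3 stress genes), the 4 with the smallest p between column sets and the 2 in Het minus WT. From the other lists called genes or the 2 with the smallest p were named. Genes outside this rule (Pfkfb3, Egln3, Vegfa, Bhlhe40, Adm, Eno1 and those given by ratio or FPKM) were named after their values were seen. Promoters came from RefSeq (GRCm38.p6).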

Additional observations from a re-analysis of the deposited data

Results flagged for a closer look

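The KO effect differed between the column sets in 31 of the 36 tested rows by the edgeR test of the difference itself, all of them higher in set 1, against 3.91% of all tested genes called higher and 3.72% lower. KO 1-3 was separated because of earlier results on these data, so this test gives no independent support. The genes with the smallest p were Pfkp, with a log2 difference of 3.61, Ddit4 with 3.06, Egln1 with 1.19 and Slc2a3 with 1.28. Column set 1 has 1 KO library, so this difference and that library, KO 1-3, cannot be told apart. KO 1-3 also had 0.634% mitochondrial reads against 1.10% to 1.30% in the other 7 libraries and was the only KO library with Xist; their part in the difference was not tested.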

How the results depend on the processing

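In the difference between column sets 31 rows were called with DESeq2, 31 with DESeq2 size factors, 30 of 32 tested rows with a stricter filter, 32 of 37 with none, and 31 to 32 when 1 of the 7 libraries other than KO 1-3, without which it cannot be fitted, was left out. The count of members called by genotype was 0 in KO minus WT, KO minus Het, KO minus the WT and Het mean, and Het minus WT with DESeq2, with DESeq2 size factors, with a stricter filter and with terms for column set or sex. DESeq2 gave 3 of the 36 rows no p in the genotype contrasts; without its cutoff on outlying counts, added after seeing the data, it gave all a p and still called 0. With no filter on low counts 19 members were called in KO minus WT, 29 in KO minus Het and 29 in KO minus the WT and Het mean. Leaving out 1 library gave 0 to 0, 0 to 1 and 0 to 2 members in these contrasts and 0 to 0 in Het minus WT. The 2 were Aldoc (2.12 log2, edgeR adjusted p = 0.0486) and Ddit4 (2.58, adjusted p = 0.0477) without KO 2-3, and without KO 1-3 the 1 was Slc2a1.

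Over the whole table, 6, 31, 54, 0 and 1241 genes were called in KO minus WT, KO minus Het, KO minus the WT and Het mean, Het minus WT and the difference between column sets. DESeq2 called 91, 159, 204, 2 and 1034, with 3 in Het minus WT without its cutoff. No filter gave 205, 437, 514 and 11 in the first 4. A column set term gave 19 and 47 in KO minus WT and KO minus Het, the compared genotypes alone 1 and 10, and a sex term 20 in KO minus WT. Leaving out 1 library gave 1 to 28, 2 to 49, 9 to 62, 0 to 1 and, KO 1-3 always kept, 612 to 1285, with 612 without Het 1-1 and 776 without Het 2-5. The causes were not tested.

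Without KO 1-3 the log2 change of Mt2 in KO minus the WT and Het mean turned from 1.57 to -0.0104, within a range over left-out libraries of -0.0104 to 2.03; that fit sets KO libraries of set 2 against WT and Het of both sets, and within column set 2 the change was 0.38. In Het minus WT, Pfkfb4 ranged from -0.36 to 0.0495, the latter without WT 1-2, and Gapdh from -0.15, without Het 1-1, to 0.47. Over left-out libraries Aldoc ranged from 0.73 to 2.12, Ddit4 from 0.72 to 2.58 and Pfkp from 0.21 to 2.76 in KO minus the WT and Het mean, lowest without KO 1-3.

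No paired analysis was possible by the labels' replicate numbers, because the columns do not carry them. Column set, from the column names, was fitted as a term, and 0 members were then called in each of the 4 genotype contrasts. Each genotype had 2 to 3 libraries, and 1 KO library lay far from the others. With the filter on low counts and KO 1-3 left out, the difference of KO 2-2 and KO 2-3 from WT and Het was called in Slc2a1. The cause of that difference was not tested.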
